A study of Mus musculus with 8 samples.

Results

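The genes described here are 10 regulators of the postmeiotic program of male germ cells: Crem, its coactivator Fhl5 and its relative Creb1; the RFX factors Rfx1, Rfx2, Rfx3 and Rfx4; the SOX factors Sox5 and Sox30; and Spz1. Their members are all probe sets that the array's annotation assigns to one of these genes and to no other gene, which gave 30 of 45101 probe sets. The array names 18193 genes in all. A probe set is a group of short oligonucleotides read out as 1 value for 1 transcript region. Of the 30, 21 lay above the median of their array on at least 2 of 8 arrays and were tested. The other 9, from 6 of the genes, had signals between 1.5 and 48.4 and were not tested. A probe set that passed only through the stage where it is high had to differ between stages, so the counts of called members are descriptions.

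RNA of 4 stages was compared: spermatogonia of type A, spermatogonia of type B, spermatocytes at pachytene and round spermatids. The mice were of BL/6-129 strain. Each stage had 2 arrays of the type Mouse 430 2.0, hybridised with total RNA of separate germ cell preparations. The sources used here give no age, no way of purification and no purity of the cells. Values are MAS5 signals, a linear intensity for each probe set, and levels of different probe sets are not set against each other.

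CREM binds cAMP response elements, and in the testis an activating form of it switches on genes of the haploid spermatid. There it works without the phosphorylation that CREB1, its relative in most other tissues, relies on, because the LIM-only protein FHL5, also called ACT, serves as its partner. RFX factors bind X-box motifs in the promoters of ciliary genes, and RFX2 is known to be required for the round spermatid program and the flagellum. SOX30 is known to be required for spermatid genes, SOX5 has a short testis form, and SPZ1 is a basic helix-loop-helix zipper protein of the testis.

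Promoters are shown because several of the factors belong to the family whose motif they were searched for. RefSeq promoters (GRCm38.p6), each with 250 bases before and 50 after the start, were at hand for 9 of the 10 genes, 11 promoters in all. Crem had none, so its promoter was not searched for any motif. The RFX motif GTTGCC, an arm of the X-box, searched on both strands, was present in 5 of the 11 (45.5%), those of Rfx1, Rfx2, Rfx3, Sox5 and Spz1. It was present in 12.5% of all 32851 promoters of the same length, in 57.7% of 26 promoters of the reported RFX targets listed below, and in 5.26% of 19 promoters of reported CREM targets. The 5 stretches follow, read 5′ to 3′ on the strand of the gene, with this motif in capitals. GGCAAC is the same motif read from the other strand. The Rfx2 stretch is chr17:56831089-56831184 (minus strand), Rfx1 is chr8:84066777-84066842 (plus), Rfx3 is chr19:28011130-28011159 (minus), Sox5 is chr6:143947107-143947182 (minus) and Spz1 is chr13:92576233-92576305 (minus).
Rfx1: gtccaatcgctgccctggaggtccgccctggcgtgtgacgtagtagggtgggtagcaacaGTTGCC
Rfx2: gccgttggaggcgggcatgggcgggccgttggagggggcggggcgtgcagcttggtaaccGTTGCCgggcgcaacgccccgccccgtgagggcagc
Rfx3: tctcttttgtgagttatagcaaccGTTGCC
Sox5: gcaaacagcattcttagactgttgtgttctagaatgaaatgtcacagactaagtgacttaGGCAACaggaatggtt
Spz1: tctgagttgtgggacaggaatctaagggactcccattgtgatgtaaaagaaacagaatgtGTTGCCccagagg

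The motif begins 16 bases before the start in Sox5, 13 before it in Spz1 and 116 before it in Rfx2. In Rfx1 it begins at base 2 and in Rfx3 at base 32 of the transcript. The longer form GTTNCCATG was in 0 of the 11 promoters, against 1.93% of all. The full cAMP response element TGACGTCA was in 0 of the 11 and in 1.79% of all. Its part TGACG was in 3 (Rfx1, Rfx2 and Rfx4), or 27.3% against 20.8% of all. Among the 19 promoters of reported CREM targets the full element was in 0 and its part in 3 (15.8%). In the 26 promoters of reported RFX targets they were in 3.85% and 30.8%. The SOX motif AACAAT was in the promoter of Fhl5 alone among the 11 (9.09% against 10.7%). The SOX motif ACAATGG, which overlaps it, was in those of Sox5, Rfx4 and Spz1 (27.3% against 3.66%). The E-box CACGTG was in 0 of the 11 and in 7.15% of all. A match is a description of letters in this window, and no match says nothing about the factor.

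Before the members, 1 array needs naming. Type B replicate 2 had higher signal than type B replicate 1 for 6 of 6 round spermatid markers and 5 of 6 pachytene markers, and its summed spermatid marker signal was 1501.2 against 78.5. On the type A arrays that sum was 105.8 and 89.1, on the pachytene arrays 2143.0 and 2609.9, and on the spermatid arrays 22232.2 and 26111.1. The 5 spermatogonial markers summed to between 3546.7 and 5628.6 on the 4 spermatogonial arrays and to between 505.2 and 987.9 on the other 4. The lowest spermatogonial sum, 3546.7, was that of type B replicate 2, on which all 5 markers read lower than on replicate 1 (5581.9). Markers of somatic testis cells moved with stage too. The 8 Sertoli cell markers summed to between 5754.2 and 9343.3 in spermatogonia, 2801.8 and 3855.1 in pachytene cells, and 743.7 and 781.0 in spermatids. Clu and Aard had the highest signals among them on every array and so weigh most in the sum. Rhox5 did not fall into pachytene cells (55.2 to 121.3 in spermatogonia, then 121.1 and 128.5), while all the others did. The 6 peritubular and stromal markers summed to at least 8633.4 on each spermatogonial array and to at most 1135.2 elsewhere. The 5 macrophage markers summed to 516.1 to 828.6, 211.1 to 220.9 and 418.6 to 438.8 in the same order, and 4 Leydig cell markers to 630.9 to 1497.4, 516.8 to 945.0 and 88.5 to 88.8. No marker was at 0 on any array. The part of these cells in the results below was not tested, and neither was that of any spermatid RNA on the pachytene arrays.

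**Figure D1:**
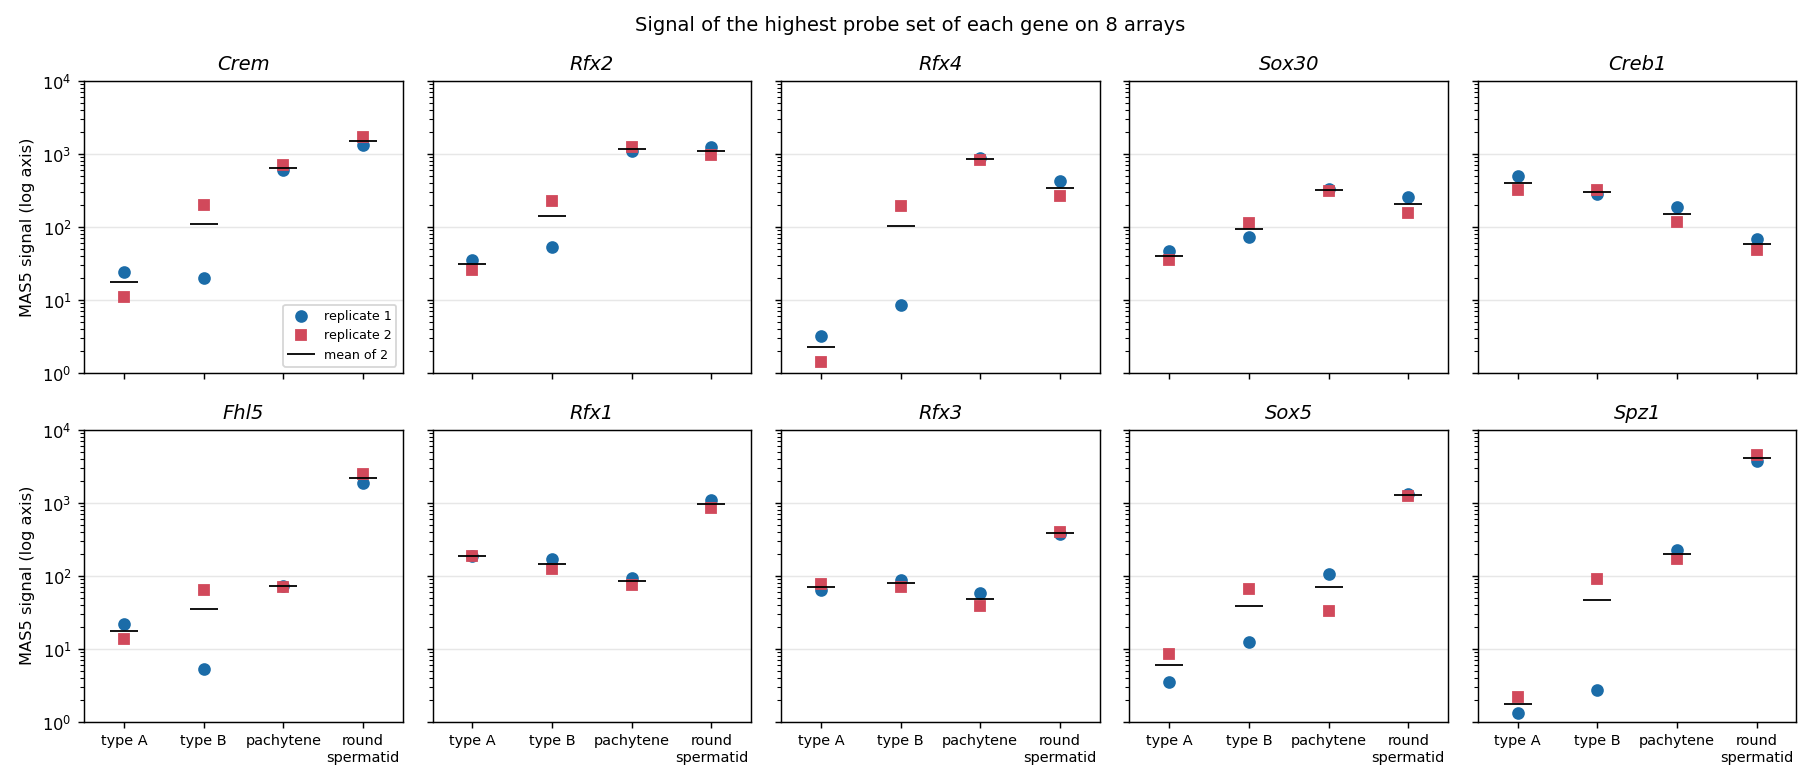
Signal of the probe set with the highest mean for each of the 10 genes (vertical axis, MAS5 signal on a log scale) over the 4 stages (horizontal axis), with replicate 1 as blue circles, replicate 2 as red squares and the mean of both as a black dash. Crem, Rfx2, Rfx4 and Sox30 are high on both pachytene arrays, Fhl5, Sox5, Spz1, Rfx1 and Rfx3 are highest on the spermatid arrays, and Creb1 is lowest there.

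Each gene is represented by its brightest probe set, by the mean of all 8 arrays. By that value 6 genes were highest in round spermatids (Crem, Fhl5, Rfx1, Rfx3, Sox5 and Spz1), 3 in pachytene spermatocytes (Rfx2, Rfx4 and Sox30) and Creb1 in type A spermatogonia. By these means spermatids were the stage of the highest level for 6 of the 10 genes. The share of all genes highest in that stage was not counted. The step from pachytene cells to spermatids was not called for Crem, Rfx2, Rfx4 or Sox30. For Rfx2 the values of these 2 stages overlapped. In pachytene cells against type A cells, 6 of the 10 genes rose, 2 fell and 2 were not called, where 26.6% of 14155 genes rose and 34.8% fell. Against type B cells 5 rose and 2 fell, where 24% of genes rose and 31.4% fell. In spermatids against pachytene cells, 5 rose, 1 fell and 4 were not called, where 14.9% of genes rose and 17% fell. These comparisons share the pachytene arrays. Calls are from limma at a Benjamini-Hochberg adjusted p under 0.05 over 28623 probe sets. Changes are differences of log2(signal + 16), which understate the change of low signals, and ± is the standard error. In bulk RNA, fewer cells of a type and less RNA per cell cannot be told apart.

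Among 21 probe sets, 8 rose and 7 fell in pachytene against type A cells (22% and 34.7% of all probe sets tested). Against type B cells 6 rose and 5 fell (20.3% and 29.5%), and in spermatids against pachytene cells 9 rose and 2 fell (11.7% and 15.7%). The median change of the 21 was 0.51, 0.48 and 0.64 in that order, beside -0.27, -0.14 and -0.09 over all probe sets. Scaling moves the base of these values: the median of all probe sets between pachytene and type A cells was -0.03 after quantile normalization and 0.11 after centring on the 75th percentile. Called members then numbered 11 higher and 5 lower, and 11 and 4, where all probe sets gave 7545 and 7923, and 8819 and 6969 (6286 and 9924 before). Against type B cells these settings gave 9 and 3, and 10 and 2 members, where all probe sets gave 6964 and 6914, and 8515 and 6157 (5805 and 8431 before).

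**Figure D2:**
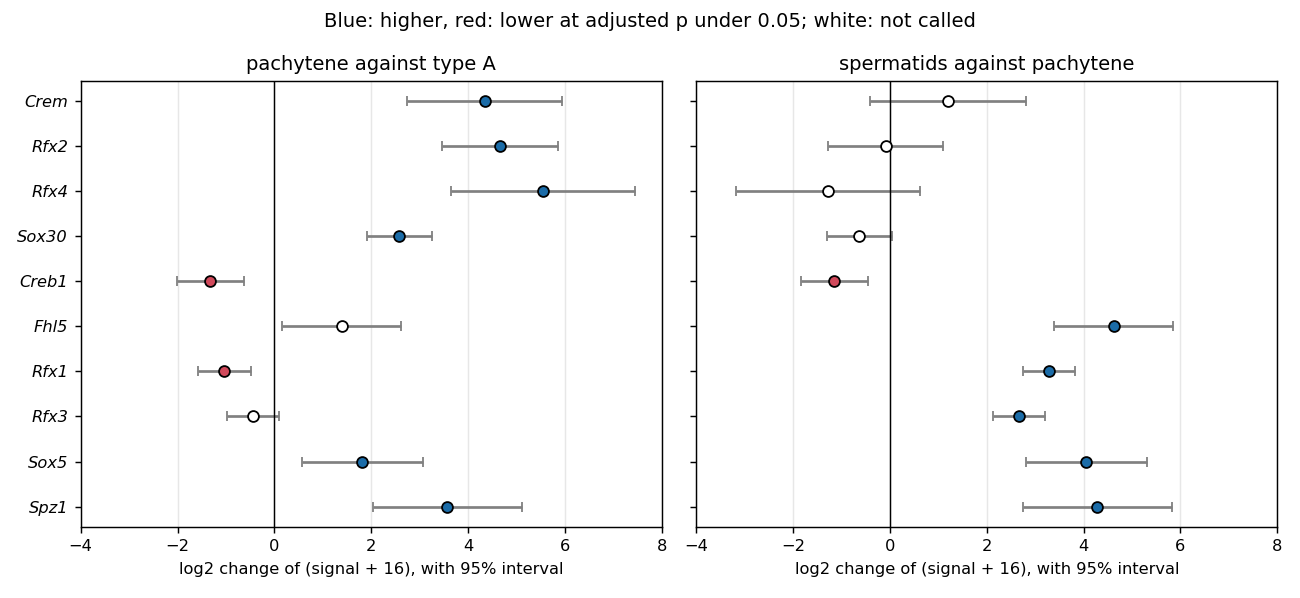
Log2 change of log2(signal + 16) with its 95% interval (horizontal axis) for the 10 highest probe sets (vertical axis), for pachytene against type A cells and for spermatids against pachytene cells. Blue points were called higher, red points lower and white points were not called by limma. The largest rises are Rfx4, Rfx2 and Crem in the first comparison and Fhl5, Spz1 and Sox5 in the second, and the pachytene arrays are shared by both.

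Crem came up at the pachytene stage. Its main probe set read 23.9 and 10.9 in type A cells, 20.2 and 199.5 in type B cells, 601.6 and 701.1 in pachytene cells, and 1346.0 and 1693.1 in spermatids. Both pachytene arrays lay above all 4 spermatogonial arrays, and both spermatid arrays above both pachytene arrays. The rise from type A to pachytene cells was 4.34 ± 0.69 on the log2 scale (limma adjusted p = 0.001212). Against type B cells it was 2.91 ± 0.69 (adjusted p = 0.009508), and it was 4.20 without type B replicate 2 and 1.63 without replicate 1.

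The further step to spermatids was 1.20 ± 0.69, with a 95% interval from -0.41 to 2.80, and was not called (limma adjusted p = 0.2541). The ratio of mean signals at that step was 2.33. The fit pools the spread of all 4 stages, and the gap between the type B arrays enters it. Without either type B array or both, the same change of 1.20 was called, at adjusted p = 0.0115 without replicate 1, 0.011 without replicate 2 and 0.0103 without both. Both spermatid values lay above both pachytene values. Leaving out type B arrays cannot alter that order or the change itself, and it changed the call. The calls of pachytene cells over type A and over type B cells held whichever array was left out.

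The other Crem probe sets did not follow it. 1418322_at read 63.8 and 89.8 in type A, 77.0 and 81.7 in type B, 125.1 and 106.1 in pachytene cells, and 86.4 and 87.6 in spermatids. Its change from type A to pachytene cells was 0.51 ± 0.22 (limma adjusted p = 0.07409), and it was called after quantile normalization (adjusted p = 0.0104), after centring on the 75th percentile (0.00937) and without type A replicate 2 (0.0401). 1449037_at lay between 48.9 and 104.3 on all 8 arrays and was called in no comparison, and the untested 1430598_at between 6.6 and 23.4. Crem makes activating and repressing forms from alternative exons and promoters. The sources used here do not give which of them each probe set reads.

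Fhl5, the coactivator, was called higher in spermatids. Its only probe set read 21.6 and 13.8 in type A cells, 5.3 and 63.7 in type B cells, 72.5 and 71.0 in pachytene cells, and 1835.5 and 2504.2 in spermatids. The 2 spermatid values stood apart from the other 6 arrays, and type B replicate 2 lay just under the pachytene arrays. From pachytene cells to spermatids the change was 4.62 ± 0.53, a 24.6-fold rise on this scale (limma adjusted p = 0.0006861). From type A to pachytene cells it was 1.39 ± 0.53 and was not called (adjusted p = 0.05415). That step was called without type B replicate 1, replicate 2 or both (0.00176, 0.00166 and 0.00155), after quantile normalization (0.0195), after centring on the 75th percentile (0.0191) and with 1 probe set per gene (0.0468). Against type B cells it was 1.09 ± 0.53 (adjusted p = 0.1226), and leaving out the type B arrays in turn gave 0.14 without the first (adjusted p = 0.717) and 2.04 without the second (0.00107).

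Creb1, the general cAMP response factor, ran the other way. Its main probe set read 494.6 and 319.0 in type A, 280.9 and 317.0 in type B, 186.9 and 119.0 in pachytene cells, and 68.9 and 49.1 in spermatids. The spermatogonial, pachytene and spermatid values did not overlap. The fall was 1.32 ± 0.30 from type A to pachytene cells (limma adjusted p = 0.006263; 0.0507 without pachytene replicate 2). The next fall, 1.15 ± 0.30 from pachytene cells to spermatids (adjusted p = 0.02323), lost its call without pachytene replicate 1 (0.158), spermatid replicate 1 (0.0643) or spermatid replicate 2 (0.165). Against type B cells the pachytene arrays were lower by a log2 change of -0.93 ± 0.30 (adjusted p = 0.03303), which was lost without either type B array or pachytene replicate 2 (0.0656, 0.101 and 0.202), under both scalings (0.0967 and 0.115) and with a pseudocount of 1 (0.0517). Somatic marker signal was highest in the spermatogonial arrays as well, and its part in this fall was not tested.

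All 5 tested Creb1 probe sets fell from type A to pachytene cells, by 0.77 to 1.78, where 34.7% of all probe sets fell. They parted at the next step. 1428755_at went on down, from 154.8 and 124.8 to 83.8 and 69.0, a change of -0.75 ± 0.22 (limma adjusted p = 0.03864) that was lost under both other scalings and without any 1 pachytene or spermatid array (adjusted p from 0.0513 to 0.217). Its fall from type A to pachytene cells was likewise lost under both scalings (adjusted p = 0.0862 and 0.174) and without type A replicate 1 (0.0964) or pachytene replicate 2 (0.122). 1423402_at stayed low, at 48.0 and 53.9 in pachytene cells and 55.1 and 44.8 in spermatids, with a change of -0.02 ± 0.21. 1452529_a_at read 30.9 and 27.6, then 34.4 and 38.0 (0.21 ± 0.19, not called). Its fall from type A to pachytene cells, 0.90 ± 0.19 (0.004359), was at adjusted p = 0.0504 after centring on the 75th percentile.

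The last tested Creb1 probe set, 1421582_a_at, went back up. It read 46.3 and 67.0 in type A, 89.7 and 32.1 in type B, 5.0 and 5.0 in pachytene cells, and 76.8 and 66.3 in spermatids. The pachytene arrays lay below the other 6, and the spermatid arrays overlapped the spermatogonial ones. Its rise into spermatids was 2.06 ± 0.36 (limma adjusted p = 0.004284) and its fall into pachytene cells 1.78 ± 0.36 (0.003582), and both were called with every array left out in turn. Probe sets of 1 gene thus gave opposite calls at the same step, 2 lower and 1 higher, and the transcript forms behind them were not tested.

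**Figure D3:**
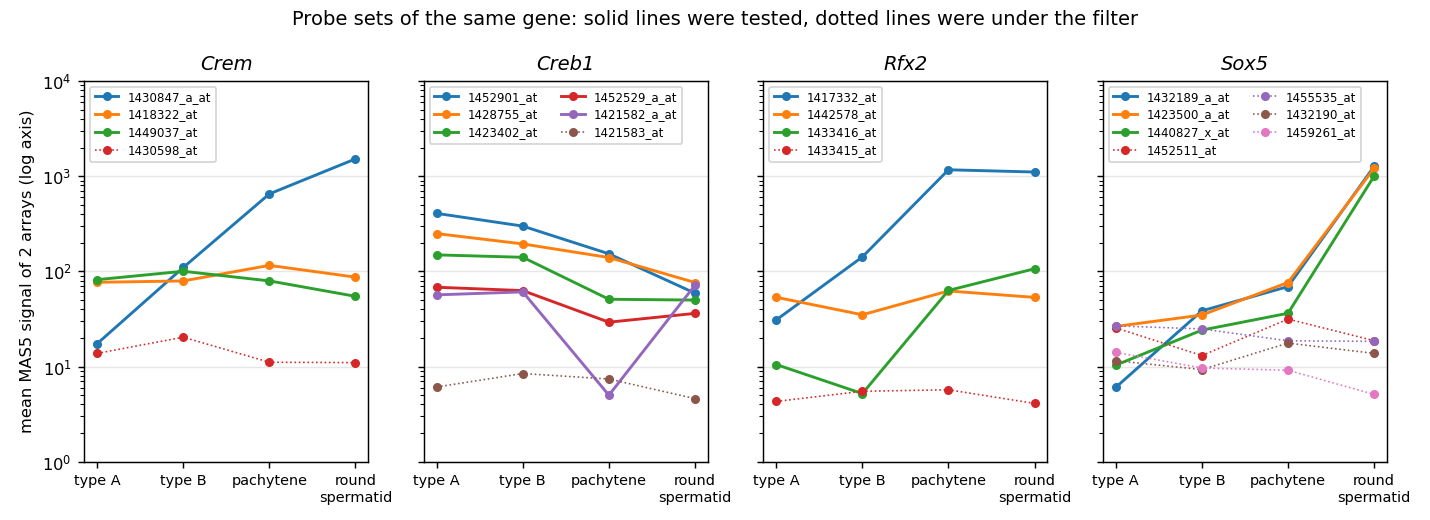
Mean MAS5 signal of each probe set (vertical axis, log scale) over the 4 stages (horizontal axis) for Crem, Creb1, Rfx2 and Sox5, with tested probe sets as solid lines and those under the filter as dotted lines. A single Crem probe set climbs while the others stay level, the Creb1 lines part after the pachytene stage, and the 3 tested Sox5 lines climb together.

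The RFX genes split by the stage of their called rise, at pachytene or in spermatids. Rfx2 belonged to the first, and its level held in spermatids. It read 35.7 and 26.1 in type A cells, 52.9 and 230.8 in type B, 1087.2 and 1249.5 in pachytene cells, and 1255.9 and 957.4 in spermatids. Pachytene and spermatid values overlapped each other and lay above all spermatogonial arrays. The rise over type A cells was 4.66 ± 0.51 (limma adjusted p = 0.0002818), and the step to spermatids was -0.09 ± 0.51 with an interval from -1.28 to 1.10. Over type B cells it was 3.18 ± 0.51 (adjusted p = 0.001679), between 2.26 without type B replicate 1 and 4.10 without replicate 2.

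A second Rfx2 probe set, 1433416_at, read 13.6 and 7.4, 6.1 and 4.3, 58.1 and 68.0, and 108.8 and 104.4 in stage order. It did not show the high type B replicate 2 value of the first, and all 4 later arrays lay above all 4 spermatogonial arrays. It lay above the array median on the pachytene and spermatid arrays alone and so was tested only because it is high there. Its separation and its rise over spermatogonia are given as a description. It rose by 1.58 ± 0.21 from type A to pachytene cells (limma adjusted p = 0.0005217). Its next step, 0.64 ± 0.21, was not called (adjusted p = 0.0564) but lay at 0.0445 to 0.05 under 7 of the alternative settings, among them both scalings and either type A array left out. 1442578_at lay between 34.0 and 72.8 on all arrays and was not called, except against type B cells under both scalings (0.0162 and 0.0126).

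Rfx4, which is best known from brain and is also read in testis, was the other pachytene member. It read 3.2 and 1.4 in type A cells, 8.5 and 196.0 in type B, 872.0 and 817.4 in pachytene cells, and 425.7 and 266.5 in spermatids. Pachytene values were the highest, spermatid values came next, and no 2 of the type A, pachytene and spermatid groups overlapped. The rise over type A cells was 5.56 ± 0.82 (limma adjusted p = 0.0008515), the largest of the 10 genes at that step. The change to spermatids was -1.28 ± 0.82, with an interval from -3.18 to 0.61 (adjusted p = 0.3029), and it was called without type B replicate 1 (0.00801), replicate 2 (0.00762) or both (0.0071). Over type B cells the rise was 3.58 ± 0.82 (limma adjusted p = 0.00806), between 2.02 without type B replicate 1 and 5.13 without replicate 2. The other Rfx4 probe set lay under the filter, between 3.9 and 44.5.

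Rfx1 fell where Rfx4 rose, at the step from type A to pachytene cells, and rose into spermatids. Its main probe set read 187.3 and 188.3 in type A, 169.3 and 121.9 in type B, 92.0 and 75.8 in pachytene cells, and 1077.2 and 851.2 in spermatids. The pachytene arrays were the lowest and the spermatid arrays the highest, with no overlap between these and any other stage. It fell by 1.03 ± 0.23 from type A to pachytene cells (limma adjusted p = 0.006398) and rose by 3.29 ± 0.23 into spermatids (0.0001296), a 9.78-fold rise on this scale. Its fall from type B cells, 0.68 ± 0.23 (adjusted p = 0.04164), was at 0.0508 or more without any 1 array other than type B replicate 2, at 0.28 and 0.243 under the other scalings, and at 0.054 with no filter.

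The second Rfx1 probe set, 1422109_at, read 36.6 and 44.2, 38.9 and 19.6, 21.5 and 6.0, and 233.9 and 235.2 in stage order. It lay above the array median on the 2 spermatid arrays alone and so was tested only because it is high there. Its change of 3.12 ± 0.31 into spermatids (limma adjusted p = 0.0003791) is given as a description, and it was not tested without either spermatid array. Its fall from type A to pachytene cells, 0.97 ± 0.31 (adjusted p = 0.02894), was lost under both scalings (0.102 and 0.141), with a pseudocount of 64 (0.053), and without type A replicate 1 (0.0607), type A replicate 2 (0.104) or pachytene replicate 2 (0.197).

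Rfx3, known for its part in ciliated cells of the embryo and the brain, also belonged to spermatids. It read 63.4 and 77.1 in type A, 87.3 and 69.8 in type B, 57.4 and 38.1 in pachytene cells, and 375.6 and 396.5 in spermatids. Both spermatid arrays lay above the other 6, and the pachytene arrays below all spermatogonial ones. The rise from pachytene cells was 2.67 ± 0.23 (limma adjusted p = 0.0002136), while the preceding change from type A cells, -0.45 ± 0.23, was not called (0.1333). The other Rfx3 probe set lay under the filter, between 19.2 and 48.4.

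Sox30 followed the pachytene pattern. It read 46.5 and 34.8 in type A cells, 72.6 and 113.2 in type B, 327.5 and 313.4 in pachytene cells, and 255.2 and 157.1 in spermatids. The pachytene values were highest, and no 2 stages overlapped. It rose by 2.58 ± 0.29 over type A cells (limma adjusted p = 0.000297) and by 1.65 ± 0.29 over type B cells (0.002399). The step to spermatids was -0.63 ± 0.29, with an interval from -1.31 to 0.04 (adjusted p = 0.1516).

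Sox5 came up in the haploid cells on every tested probe set. The main one read 3.5 and 8.6 in type A, 12.2 and 64.8 in type B, 105.0 and 33.4 in pachytene cells, and 1310.6 and 1222.4 in spermatids. The spermatid arrays stood far above the rest, and the pachytene values overlapped those of type B. Into spermatids it rose by 4.05 ± 0.54 (limma adjusted p = 0.00133). The smaller rise from type A to pachytene cells, 1.82 ± 0.54 (adjusted p = 0.02093), was lost without type A replicate 1 (0.0877) or pachytene replicate 1 (0.132).

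The Sox5 probe set 1423500_a_at went from 96.0 and 56.8 in pachytene cells to 1266.2 and 1152.2 in spermatids, a rise of 3.76 ± 0.34 (limma adjusted p = 0.0002646). 1440827_x_at went from 45.0 and 27.6 to 1091.2 and 911.1, a rise of 4.30 ± 0.43 (limma adjusted p = 0.0003881). It lay above the array median on pachytene replicate 1 and the spermatid arrays alone, so this rise is given as a description. From type A to pachytene cells the former rose by 1.09 ± 0.34 (adjusted p = 0.0265; 0.071, 0.0841 and 0.158 without type A replicate 1, type A replicate 2 and pachytene replicate 1), and the latter changed by 1.03 ± 0.43 (0.07362). The latter was called, at adjusted p from 0.0223 to 0.039, under both scalings and without type A replicate 2, either type B array or both. The other 4 Sox5 probe sets lay between 1.5 and 36.9 on all arrays and stayed there in spermatids.

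Spz1 climbed at both steps. It read 1.3 and 2.2 in type A cells, 2.7 and 90.0 in type B, 224.1 and 168.8 in pachytene cells, and 3695.5 and 4482.9 in spermatids. Each stage after type B lay above all arrays of the stage before. From type A to pachytene cells it rose by 3.57 ± 0.67 (limma adjusted p = 0.002512) and from there to spermatids by 4.28 ± 0.67 (0.00265). The summed round spermatid markers were also higher on the pachytene arrays (2143.0 and 2609.9) than on the type A arrays (105.8 and 89.1). Any part of spermatid RNA in the first rise was not tested. Spz1 and Sox5 were called higher at both of these steps, and for Spz1 both calls held under every alternative run. Its rise over type B cells, 2.24 ± 0.67 (adjusted p = 0.02397), was 0.99 without type B replicate 1 (0.0221) and 3.49 without replicate 2. It lost its call without pachytene replicate 1 (0.103) or replicate 2 (0.0662) and with a pseudocount of 1 (0.0683).

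Between the spermatogonial stages no member was called, and limma called 0% of all probe sets in either direction, with 1121 higher and 1201 lower at an unadjusted p under 0.05. The changes from type A to type B cells were 1.98 ± 0.82 for Rfx4, 1.48 ± 0.51 for Rfx2, 1.43 ± 0.69 for Crem, 1.33 ± 0.67 for Spz1, 1.12 ± 0.54 for Sox5 and 0.93 ± 0.29 for Sox30. For all but Sox30 these changes rest mainly on type B replicate 2. Without type B replicate 1 the changes of Rfx4, Rfx2, Crem and Spz1 were 3.54, 2.40, 2.72 and 2.58, all called, and without replicate 2 they were 0.42, 0.56, 0.14 and 0.08, none called. Sox5 changed by 1.88 without replicate 1 and 0.36 without replicate 2, and Sox30 by 1.20 and 0.65, none of them called. Leaving out replicate 1 also brought 1059 higher and 84 lower calls over all probe sets.

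Rfx1 and Rfx3, both highest in spermatids, read lower on type B replicate 2 than on replicate 1 (121.9 against 169.3, and 69.8 against 87.3). Creb1 read higher on it (317.0 against 280.9) but was lower at the later stages. For the other genes the excess of type B replicate 2 over replicate 1 can be set against the later level. As a share of the excess of pachytene cells over type B replicate 1 it was 15.9% for Rfx2, 16.4% for Sox30, 22.4% for Rfx4, 28.4% for Crem, 45.1% for Spz1, 87.9% for Fhl5 and 92.3% for Sox5. As a share of the excess of spermatids it was 2.14% for Spz1, 2.7% for Fhl5, 4.19% for Sox5, 12.0% for Crem, 16.9% for Rfx2, 30.4% for Sox30 and 55.5% for Rfx4. On the first scale the share was larger for Fhl5, Sox5 and Spz1 than for Crem, Rfx2, Rfx4 and Sox30, and on the second it was smaller. Both scales divide the same excess by a later level. The ratio of spermatid to pachytene mean signal was 18.3 to 30.2 for the former genes and 0.41 to 2.33 for the latter. The swap follows largely from these ratios, so nothing about type B replicate 2 is read from it.

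Genes whose level ran most like each member over the 8 arrays were named by Pearson correlation of log2(signal + 16), 3 for each, as a description of 4 stages with 2 arrays. Crem ran with 1700003H04Rik (r = 0.998), Actl9 and Cfap126, and Fhl5 with 1700001C19Rik, Asb17 and Gzmn. Creb1 ran with G3bp2 (r = 0.997), Mycbp2 and Mef2d. Rfx2 ran with Ccdc96 (r = 0.998), Lrrc6, an assembly factor of ciliary dynein, and Ccdc181. Rfx1 ran with Clip1 (r = 0.999), Klf5 and Uri1, Rfx3 with Lrrc57, Ppm1j and Dgat2, and Rfx4 with Abcc12, Wdr20rt and Ndufaf3. Sox5 ran with H1f7, a linker histone of spermatids (r = 0.997), Selenov and Dpysl3. Sox30 ran with Cdkl2, Trim37 and Abhd16a, and Spz1 with Slc22a14 (r = 0.999), Oaz3 and Tssk2.

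Of 20 relatives and cofactors of CREB, CREM and ATF factors, 18 were tested. In spermatids against pachytene cells 4 rose and 2 fell, with a median of 0.24 beside -0.06 over all genes, of which 14.9% rose and 17% fell. Creb3l4, a membrane-bound relative of CREB, rose by 3.42 ± 0.43 (limma adjusted p = 0.0009908), from 201.4 and 144.1 to 2011.2 and 1947.1. Kif17, the motor that carries FHL5 out of the nucleus, rose by 3.12 ± 0.21 (0.0001291), from 150.4 and 126.6 to 1355.1 and 1295.2. Both were high on the spermatid arrays alone.

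Camk4, a kinase of the same pathway, rose by 2.07 ± 0.32 (limma adjusted p = 0.002458). Crebbp, the acetyltransferase that phosphorylated CREB recruits, rose by 0.96 ± 0.24 (0.01904; 0.131, 0.131 and 0.059 without pachytene replicate 2, spermatid replicate 1 and spermatid replicate 2). Atf4, the factor of the integrated stress response, fell by 1.42 ± 0.22, and Atf2 fell by 1.26 ± 0.26, the latter at adjusted p = 0.073 without pachytene replicate 1 and 0.0855 without spermatid replicate 2.

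Of the 18, 3 rose from type A to pachytene cells and 10 fell (median -0.79 beside -0.15), or 5 and 8 after centring on the 75th percentile. Over all genes 26.6% rose and 34.8% fell at this step before that centring. Fhl4, a LIM-only relative of FHL5 in testis, rose by 6.87 ± 1.43 (limma adjusted p = 0.004189), from 25.2 and 8.3 to 3585.0 and 3775.7, with 14.5 and 1439.0 in type B cells. All 4 later arrays lay above the spermatogonial ones, of which type B replicate 2 was the highest. Fhl1 fell by 2.94 ± 0.30, and Fhl2 fell by 2.89 ± 0.29. Crebbp fell by 2.22 ± 0.24. The somatic marker sums fell at the same step, and their part in these falls was not tested.

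All 18 spermatid genes reported as CREM targets were tested. From type A to pachytene cells 16 rose and 1, Ace, fell (median 3.41 beside -0.15 over all genes, 26.6% rising and 34.8% falling). From there to spermatids 14 rose and none fell (median 3.66 beside -0.06, where 14.9% of all genes rose and 17% fell). The second count was 8 without pachytene replicate 2, spermatid replicate 1 or spermatid replicate 2 and with a pseudocount of 1, 10 without pachytene replicate 1, and 17 without type B replicate 1, replicate 2 or both. The first count, 16, was 14 with a pseudocount of 1 or with no filter. Without type A replicate 1, type A replicate 2 or pachytene replicate 1 fewer were called, with medians of 3.34, 3.61 and 3.3. In pachytene against type B cells 9 rose and 1 fell (median 1.8), where 24% of all genes rose and 31.4% fell. This count of 9 depended on the setting. It was 3 with a pseudocount of 1, 6 with no filter, and 12 with a pseudocount of 64 or after centring on the 75th percentile. The median at this step was 0.617 without type B replicate 1, 3.19 without type B replicate 2 and 1.78 without pachytene replicate 1. Hspa1l, a testis chaperone, rose by 4.54 ± 0.29 from pachytene cells to spermatids (limma adjusted p = 0.0001177) and H1f7 by 4.40 ± 0.57 (0.001195).

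The transition proteins and protamines, which replace histones in spermatid chromatin, spread more. Tnp2 rose by 4.20 ± 0.77 and then by 3.53 ± 0.77 (limma adjusted p = 0.01119), the second change being at 0.0567 to 0.0921 without any 1 pachytene or spermatid array and at 0.14 with a pseudocount of 1. Tnp1 read 182.3 and 338.4 in pachytene cells and 3037.0 and 4396.9 in spermatids, a change of 3.79 ± 1.03 (adjusted p = 0.0282) that lay at 0.0745 to 0.164 without any 1 of those arrays, at 0.179 with a pseudocount of 1 and at 0.0509 with no filter. From type A to pachytene cells it rose by 3.71 ± 1.03 (0.01574; 0.0556 without type A replicate 1, 0.0525 without type A replicate 2 and 0.0824 without pachytene replicate 2).

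Prm1 rose by 5.66 ± 1.35 from type A to pachytene cells (limma adjusted p = 0.00812). Its next change, 2.76 ± 1.35, was not called (0.1793) and was called without both type B arrays (0.000119). Pgk2, the testis phosphoglycerate kinase, rose by 5.53 ± 0.99 at the first step. Ace fell by 1.04 ± 0.32 at the first step, which was lost without type A replicate 2 or either pachytene array (0.107, 0.0606 and 0.107) and under both scalings (0.103 and 0.115), and rose by 3.66 ± 0.32 at the second.

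Of 26 ciliary and flagellar genes reported as RFX targets, 25 were tested. In pachytene against type A cells 22 rose and none fell (median 1.91 beside -0.15 over all genes, of which 26.6% rose and 34.8% fell). Against type B cells 23 rose and none fell (median 2.02), where 24% of all genes rose and 31.4% fell. From pachytene cells to spermatids 4 rose and 8 fell (median -0.30 beside -0.06), and the 8 became 3 without either pachytene array, 4 without spermatid replicate 1 and 1 without spermatid replicate 2. Over all genes 14.9% rose and 17% fell from pachytene cells to spermatids. No test of a difference between the CREM and RFX target lists was run.

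Spag6l and Spag16, of the central pair of the flagellum, rose by 6.76 ± 1.18 and 5.79 ± 0.87 from type A to pachytene cells (limma adjusted p = 0.001811 and 0.0009335). Foxj1, a master factor of motile cilia, read 21.2 and 31.4 in type A, 23.1 and 32.7 in type B, 74.9 and 61.0 in pachytene cells, and 1193.6 and 1416.8 in spermatids, a final rise of 3.98 ± 0.23 (0.0001118). Bbs5 rose by 2.88 ± 0.30 at that step. Bbs1, of the same ciliary trafficking complex, fell by 1.50 ± 0.26 (adjusted p = 0.004453; 0.0515 without spermatid replicate 2), and Mks1, of the ciliary transition zone, fell by 1.32 ± 0.19.

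**Figure D4:**
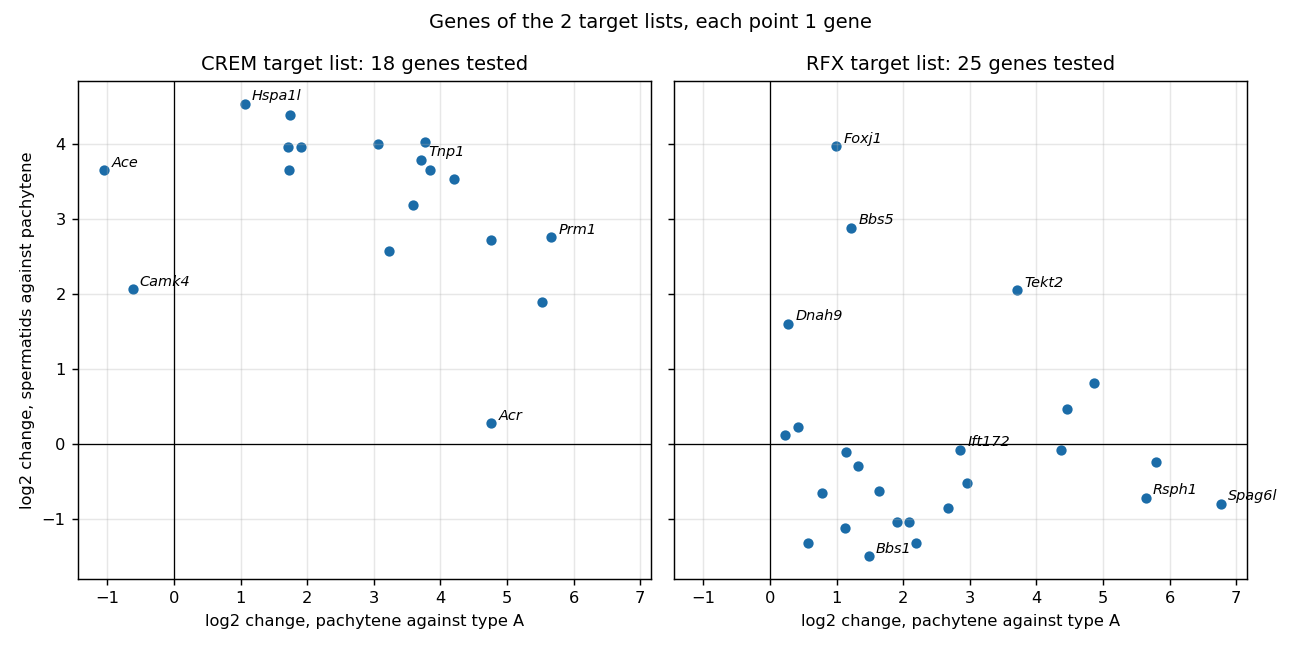
Log2 change from type A to pachytene cells (horizontal axis) against log2 change from pachytene cells to spermatids (vertical axis) for 18 genes reported as CREM targets and 25 reported as RFX targets, 1 point for each gene. The CREM list has median changes of 3.41 and 3.66 and the RFX list 1.91 and -0.30. The pachytene arrays enter both axes with opposite sign, so no relation is read from the scatter.

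Of 6 further RFX genes and partners, 5 were tested. In spermatids against pachytene cells 14.9% of all genes rose and 17% fell. Rfx8 rose by 3.68 ± 0.56 from type A to pachytene cells (limma adjusted p = 0.0009797), and its next change of 1.15 ± 0.56 was called without either type B array or both and with a pseudocount of 64. Rfxap, a partner of RFX5 at MHC class II promoters, fell by 1.81 ± 0.25 into spermatids (0.001441). Rfx7 fell by 1.23 ± 0.24 and then by 1.03 ± 0.24, the latter at 0.0857 to 0.114 without pachytene replicate 1 or either spermatid array. In all, 3 of the 5 fell into spermatids (1 without pachytene replicate 1 or either spermatid array) and, apart from Rfx8 in those settings, none rose.

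Of 17 other Sox genes, 15 were tested. At the step into pachytene cells, against type A, 3 rose and 7 fell (median -0.48 beside -0.15 over all genes, of which 26.6% rose and 34.8% fell), and the 3 became 1 without type A replicate 1 or pachytene replicate 1. Sox4 fell by 2.98 ± 0.28, and Sox3, a factor of undifferentiated spermatogonia, fell by 2.88 ± 0.29. Sox1 rose by 1.67 ± 0.28. Sox17 rose by 1.11 ± 0.33 and lost its call without type A replicate 1 (0.0808), pachytene replicate 1 (0.0605) or pachytene replicate 2 (0.0937).

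Into spermatids Sox6, a relative of SOX5 in the SOXD group, rose by 3.10 ± 0.28 (limma adjusted p = 0.0002652), from 58.1 and 43.0 to 608.9 and 497.9. It was the only one of the 15 called higher at that step, joined by Sox3 without either type B array or both (adjusted p from 0.0347 to 0.0376). Sox4 fell by a further 1.00 ± 0.28 (0.03076; 0.146, 0.104 and 0.202 without pachytene replicate 1, pachytene replicate 2 and spermatid replicate 2, and 0.0617 after quantile normalization).

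Of 18 other regulators of the postmeiotic program, 17 were tested. In pachytene against type A cells 8 rose and 6 fell (median -0.08 beside -0.15), where 26.6% of all genes rose and 34.8% fell. Into spermatids 5 rose (3 without either spermatid array) and 3 fell (1 without any pachytene or spermatid array), with a median of 0.32 beside -0.06, where 14.9% rose and 17% fell. Gtf2a1l, the testis form of a general transcription factor, rose by 5.80 ± 0.93 at the first step and Papolb, a testis poly(A) polymerase, by 4.26 ± 0.73. Mybl1, a master factor of the pachytene program, fell by 1.65 ± 0.28 at the second (limma adjusted p = 0.004112). Sirt1 fell by 0.96 ± 0.27 (0.03085), which was lost without any 1 pachytene or spermatid array (0.0798 to 0.171) and after quantile normalization (0.0695).

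Taf7l and Klf4 dipped in pachytene cells as Rfx1 did. Taf7l, a TFIID subunit of germ cells, read 1427.0 and 1600.6 in type A, 2198.2 and 1074.3 in type B, 88.2 and 103.7 in pachytene cells, and 591.2 and 604.9 in spermatids. It fell by 3.77 ± 0.32 and rose by 2.46 ± 0.32 (limma adjusted p = 0.0001602 and 0.001209). Klf4 read 1166.6 and 2052.1, 2045.5 and 2361.6, 352.5 and 233.0, and 2649.5 and 2055.3 in stage order, a fall of 2.37 ± 0.32 and a rise of 2.96 ± 0.32 (0.0006174 and 0.0005579). Klf4 in spermatids was back within the range of the spermatogonial arrays on 1 array and above it on the other, while Taf7l stayed below that range.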

How the data were processed

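The authors deposited 1 MAS5 intensity per probe set and array, a linear signal, as the submitters' processing notes state; the sources used here give neither its version nor detection calls. The deposited values had been scaled: without the top and bottom 2% of probe sets, each array averaged 125. Array medians ran from 33.7 to 51.9, and the number of arrays limits the precision.

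Names come from the platform annotation, with symbols updated through RefSeq gene identifiers. Of 45101 probe sets, 34945 named 1 gene, 932 named several, 9160 named none and 64 were controls. Those listing several genes named nothing. The 28623 probe sets above their array's median on at least 2 of 8 arrays were tested with limma 3.58.1 in R 4.3.3 (lmFit, 1 mean per group, then eBayes; 4 residual and 3.91 prior degrees of freedom), two-sided, with Benjamini-Hochberg adjustment in each of 4 comparisons, after the script was tested on simulated data. The p-values measure the spread between preparations.

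All tested member probe sets are described above, and some of those under the filter only through their joint range. For each member gene, 3 genes of most similar pattern were named. From 6 lists of related genes written from textbook knowledge, those with the largest called rises and falls and 8 chosen genes were named. Members and lists were chosen with earlier results of these data known. Genes in the lists are read from their highest probe set. Atf1, Rfx6 and Kctd19 had no probe set of their own here, and Fhl3, Dnah11, Sox2 and Sox14 lay under the filter. Alternatives were other pseudocounts (1 and 64), no filter, quantile normalization, centring on the 75th percentile, 1 probe set per gene, a replicate block and each array left out.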

Additional observations from a re-analysis of the deposited data

How the results depend on the processing

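Over 16 alternative settings, 1250 values of the 21 tested member probe sets were recomputed. Of these, 1161 kept their side of the threshold, 47 lost a call, 42 gained one and 0 calls turned direction. Leaving out both type B arrays was chosen after seeing the data. With 1 array of a stage left out, the lone array is assumed to vary like the other stages.

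With 1 probe set per gene, fewer probe sets were tested and the calls over all were 3607 higher and 4625 lower for pachytene against type B, 3855 and 5042 for pachytene against type A, and 2692 lower for spermatids against pachytene. Member calls were then 2 lower for pachytene against type B, 2 lower for pachytene against type A, and 5 higher and 1 lower for spermatids against pachytene. With arrays centred on the 75th percentile, members called were 10 higher and 2 lower for pachytene against type B, 4 lower against type A and 1 lower for spermatids. Quantile normalization gave 3 lower members for pachytene against type B and 1 lower for spermatids. The cause was not tested.

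With each array left out in turn, calls over all probe sets ran from 0 to 1059 higher and 0 to 84 lower for type B against type A, 3726 to 5899 and 6246 to 8656 for pachytene against type B, 4738 to 6523 and 7406 to 10066 against type A, and 1507 to 3836 and 1637 to 5264 for spermatids against pachytene. Member calls ran from 0 to 4 higher, 5 to 9 higher and 2 to 4 lower, 6 to 10 and 4 to 7, and 8 to 11 and 0 to 3 in the same order.

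Same-numbered arrays did not deviate together in every pair of stages. The correlation of replicate differences between stages ran from -0.271 (type A with type B) to 0.351 (type A with pachytene). A fit with the replicate block changed no member call. It gave 6 higher and 5 lower members for pachytene against type B, 8 and 7 against type A, and 9 and 2 for spermatids against pachytene, with 5646 higher and 8228 lower, 6179 and 9675, and 3237 and 4260 over all probe sets.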

Other observations

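The genes of this paragraph were chosen after their values were seen. Several regulators in the lists were lower on both pachytene arrays than on the 4 spermatogonial and both spermatid arrays, as Rfx1 was on its main probe set. Jund read 1593.6 to 2159.2 in spermatogonia, 354.0 and 522.5 in pachytene cells, and 874.7 and 1043.1 in spermatids. Its rise into spermatids of 1.12 ± 0.25 (limma adjusted p = 0.01328) was at 0.104 without pachytene replicate 1, 0.0529 without spermatid replicate 1 and 0.107 without spermatid replicate 2. Brwd1, a chromatin reader needed for spermatid transcription, read 92.9 to 190.0, then 60.7 and 51.2, then 132.4 and 135.5. Its rise of 1.06 ± 0.23 (adjusted p = 0.01143) was at 0.0794, 0.0669 and 0.0809 without pachytene replicate 2, spermatid replicate 1 and spermatid replicate 2. Crebbp read 537.9 to 846.8, then 185.6 and 140.8, then 372.8 and 292.4. Ace, the peptidase whose testis form comes from a promoter within the gene, read 171.9 to 347.7, then 119.3 and 102.7, then 1440.2 and 1736.4.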
